A study of Mus musculus with 8 samples.

Results

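miR-21a is one of the most abundant miRNAs of cultured cells, and its 2 arms, mmu-miR-21a-5p and mmu-miR-21a-3p, are described here among the 1978 mouse mature miRNAs of the count table. Both arms were taken by name. The libraries hold small RNA of the mouse hepatocyte line 3A, which is not tumorigenic, and of the extracellular vesicles (EVs) recovered by ultracentrifugation from its medium after 72 h with EV-depleted serum. Cells carried either a scrambled shRNA (shCTR) or an shRNA against PCBP2 (shPCBP2), both delivered stably with the pSUPER retro puro retroviral vector and selected with puromycin, and all were grown with EGF, IGF II and insulin on collagen I. Cells and EVs of both shRNAs made 4 groups, with 2 biological replicates each according to the methods of the study. All groups come from 1 cell line, the EV libraries hold RNA pooled from all vesicles of a culture, and the level of PCBP2 itself was not analysed here.

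A miRNA hairpin is cut into a duplex, and one strand, the guide, is kept by Argonaute while the other, the passenger, is usually degraded. For miR-21 the guide is the 5p arm, which is known for repressing the tumor suppressor Pdcd4 and for its high level in hepatocellular carcinoma, liver injury and fibrosis. The study asked whether PCBP2, an RNA-binding protein that prefers C- and U-rich RNA, keeps miRNAs inside hepatocytes and away from EVs.

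The mouse sequences below were taken from RefSeq on GRCm38.p6, with the seed (bases 2 to 8) in capitals, to show which strands the counts tell apart.
miR-21a-5p: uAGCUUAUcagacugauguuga
miR-21a-3p: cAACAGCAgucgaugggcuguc
miR-21c: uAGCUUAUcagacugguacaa
miR-21b: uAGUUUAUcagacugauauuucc
The guide lies at chr11:86584120-86584141 and the passenger at chr11:86584082-86584103, both on the minus strand. Their hairpin, chr11:86584067-86584158, falls inside exon 12 of Vmp1, an autophagy gene, in the part annotated as its 3′ UTR (chr11:86583865-86585310) and on the same strand. miR-21c shares its seed and first 15 bases with miR-21a-5p. miR-21b has another seed, and its unbroken match from the first base ends after 3 bases. Past that mismatch most of its bases are again those of miR-21a-5p. miR-21b and miR-21c, as well as both arms of miR-590, the other miRNAs listed with the family, had 0 reads in all 8 libraries. No sequence of miR-590 was found in the reference, so the seeds of its arms were not compared. With at most 3 counts allowed by a count of 0, the reads of the family were thus all assigned to miR-21a.

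The core of the CELL motif and the hEXO motif, both discussed in the study, were searched on the RNA strand of both arms. The study also scanned an extended CELL motif, which was not searched here. The CELL core, AUUA or AUUG, is linked to retention in cells, and it was found in neither arm. Of 1679 mature mouse miRNAs of RefSeq, 2.50% hold AUUA and 6.79% hold AUUG, and of the 156 tested miRNAs that have a sequence there, 0% and 16.0% do. These shares do not cover the other tested miRNAs. miR-421-3p was tested, and the study lists it with the CELL core. Its primer in the study holds ATTA, the DNA form of AUUA. The hEXO motif, read by the EV loader SYNCRIP, was searched as the consensus of 6 bases given in the study, which allows 2 or 3 letters at each position, with overlapping matches counted and no score. It was found in both arms, and the matched bases are in capitals to show where.
miR-21a-5p: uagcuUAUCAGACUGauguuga
miR-21a-3p: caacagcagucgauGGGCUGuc
The guide holds 2 matches that overlap, at bases 6 to 11 and 10 to 15, and the passenger holds 1, at bases 15 to 20. Such a match is common, in 82.1% of the RefSeq miRNAs and 90.4% of the tested ones. These letters describe the sequences and say nothing of binding.

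In the 8 libraries, 26391248 to 38166798 reads were counted for mouse mature miRNAs and the nematode spike-in cel-miR-39-3p together. Reads counted for neither are not included. Mouse miRNAs took 33.1% to 42.6% of these counted reads in cell libraries and 1.62% to 2.42% in EV libraries. The spike-in makes up the rest of this sum. This left 8745848 to 12732173 mouse reads per cell library and 503070 to 687592 per EV library. Levels below are reads per 1000000 reads of the spike-in, and shares are percentages of the mouse reads of a library. The methods do not tie the spike-in to a number of cells or vesicles, so in bulk libraries fewer vesicles and less miRNA per vesicle cannot be told apart. The hepatocyte label was checked with 3 marker miRNAs. miR-194-5p held 2.29% to 2.69% of mouse reads in cells and miR-192-5p 0.109% to 0.161%, but miR-122-5p, the defining hepatocyte miRNA, only 0.00357% to 0.00415%, or 356 to 485 reads. The line thus had low miR-122-5p.

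mmu-miR-21a-5p was among the most abundant miRNAs of the cells and was much lower in EVs. In cell shCTR it had 574098 and 459572 reads, which correspond to levels of 32214 and 29208. In cell shPCBP2 it had 424996 and 552573 reads, at levels of 24085 and 31011. The EVs held far fewer reads, 4951 and 4730 with shCTR, at levels of 178.3 and 181.7, and 5631 and 3750 with shPCBP2, at levels of 150.0 and 123.3. Every cell library was therefore above every EV library, and within each compartment the replicates were close.

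The mean level was 30711 ± 2125 (SD, n = 2) in cell shCTR and 27548 ± 4897 (SD, n = 2) in cell shPCBP2, and these groups overlapped. It was 180 ± 2.39 (SD, n = 2) in EV shCTR and 136.6 ± 18.8 (SD, n = 2) in EV shPCBP2. Replicates differed by 0.03 to 0.36 on the log2 scale, least in EV shCTR and most in cell shPCBP2. In the order of levels, with shCTR above shPCBP2 in either compartment, only the step from cells to EVs passed a test.

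**Figure D1:**
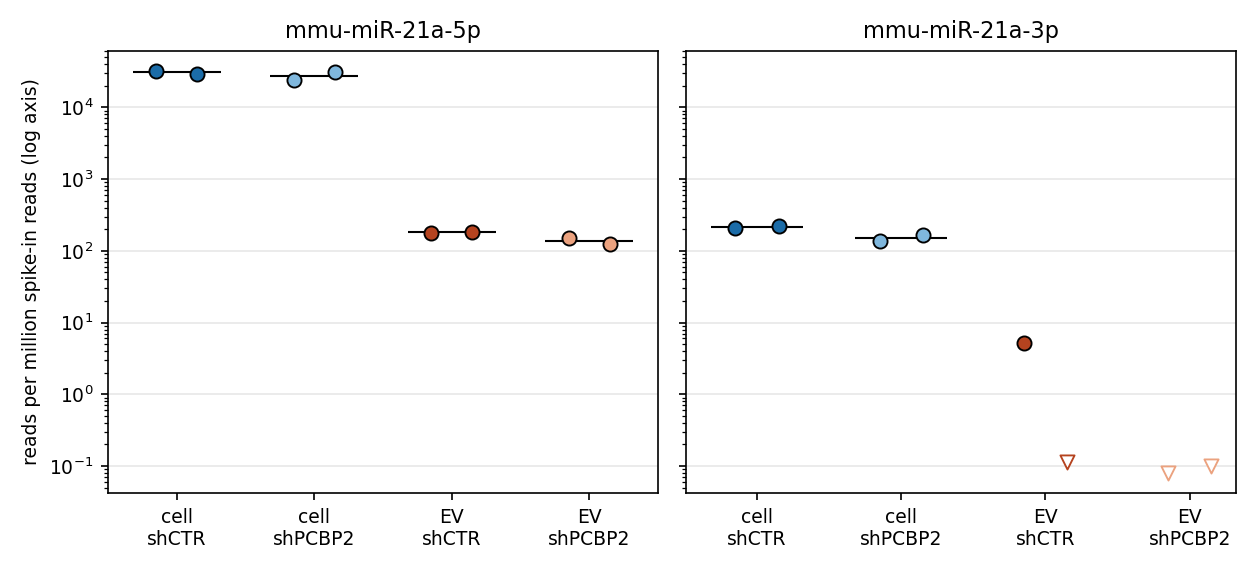
Levels of miR-21a-5p and miR-21a-3p in the 8 libraries, in reads per 1000000 spike-in reads on a log axis. Points are libraries, lines are means of 2 replicates, and open triangles mark libraries with 0 reads at the level that 3 counts would give. The guide has reads in every library, and the passenger has EV reads in 1 of 4 EV libraries.

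The edgeR quasi-likelihood test, scaled to the spike-in, was fitted over all 8 libraries to the 180 miRNAs that had reads in 2 or more libraries of each compartment, and p-values were adjusted over all of them by the Benjamini-Hochberg method. miR-21a-5p was 171-fold lower in EVs than in cells in shCTR, a log2 ratio of -7.41 (SE 0.24, 95% interval -7.99 to -6.84, edgeR adjusted p = 4.16e-06). In shPCBP2 it was 202-fold lower, a log2 ratio of -7.66 (SE 0.24, 95% interval -8.24 to -7.07, edgeR adjusted p = 3.66e-06). Most miRNAs were called lower in EVs on this scale, 107 of 180 (59.4%) in shCTR and 108 (60.0%) in shPCBP2, against 12 and 14 called higher. The call by itself therefore does not set miR-21a-5p apart from the rest. Scaling by TMM factors instead gave 40 miRNAs lower and 42 higher in shCTR, and 45 lower and 42 higher in shPCBP2. miR-21a-5p was lower in EVs also there, with log2 ratios of -2.65 and -3.11.

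The size of the difference placed the guide at the low end of the 180 tested miRNAs, which all had reads in 2 or more EV libraries. The median log2 EV/cell ratio over the tested miRNAs was -4.93 in shCTR and -4.90 in shPCBP2, so that miR-21a-5p lay 2.48 and 2.76 below it. Only 10 of 180 miRNAs had a lower ratio than miR-21a-5p in shCTR, and also 10 in shPCBP2. This place depended on the filter and the tool. With no filter, 30.1% of 800 miRNAs had a lower ratio in shCTR and 22.8% in shPCBP2. With limma voom, 12.8% and 17.2% of the 180 did. Of the 10 in shCTR, 7 had 0 reads in at least 1 EV shCTR library, and miR-106a-5p had only 3 reads in both together. The other two, miR-872-5p at -8.32 (SE 0.52, edgeR adjusted p = 5.03e-05) and miR-206-3p at -8.16 (SE 0.65, edgeR adjusted p = 5.02e-05), were read in both EV shCTR libraries. Among the 113 miRNAs with at least 10 reads in every library only miR-206-3p, a miRNA of skeletal muscle, was lower in shCTR, and in shPCBP2 it and the p53-induced miR-34a-5p were lower, at -7.72 and -7.70.

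**Figure D2:**
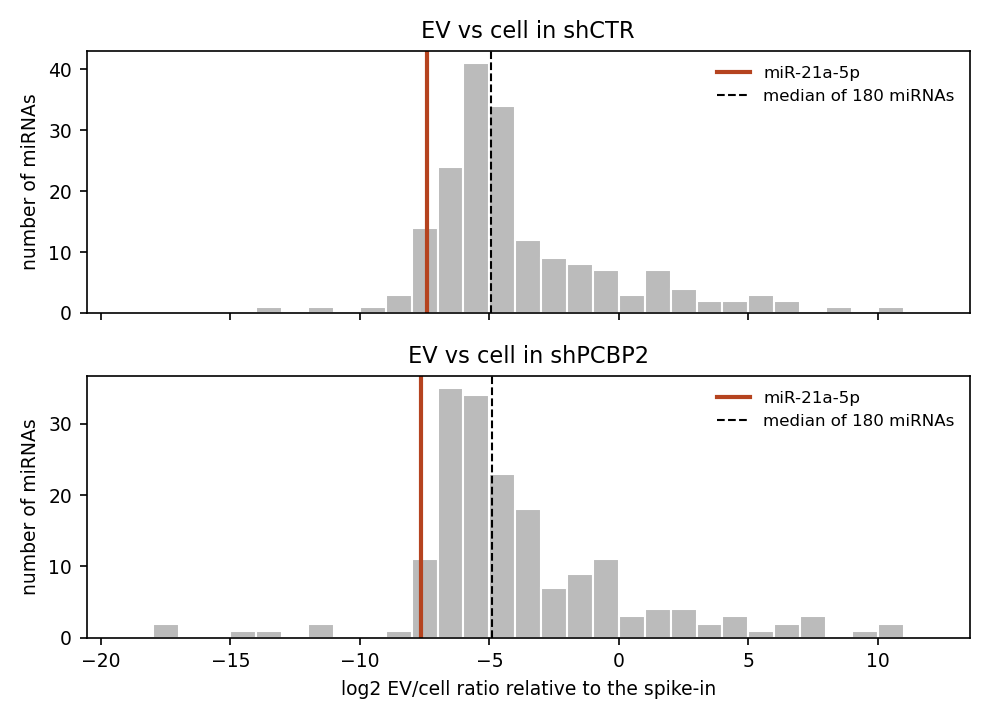
Histograms of the log2 EV/cell ratio relative to the spike-in for the 180 tested miRNAs, in shCTR above and in shPCBP2 below. The solid line marks miR-21a-5p at -7.41 and -7.66, and the dashed line the median at -4.93 and -4.90.

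Shares, which do not use the spike-in, showed the same order. miR-21a-5p held 4.51% and 3.93% of mouse reads in cell shCTR, and 4.86% and 4.37% in cell shPCBP2. Its EV shares were 0.720% and 0.854% with shCTR, and 0.910% and 0.745% with shPCBP2. In either compartment the shares of both shRNAs overlapped. The widest Wilson 95% interval among the EV libraries, 0.831% to 0.879% in EV shCTR replicate 2, was narrower than the gap between replicates, and such intervals cover counting error only. Mean shares were 4.22% ± 0.41 and 4.62% ± 0.34 in cells and 0.787% ± 0.095 and 0.828% ± 0.117 in EVs (SD, n = 2 each). The share was thus 5.36 times higher in cells than in EVs in shCTR and 5.58 times in shPCBP2. By rank, the guide was between the 5th and the 7th most read miRNA in cell libraries and between the 26th and the 32nd in EV libraries.

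The guide was then compared with miRNAs of similar abundance in cells. miR-21a-5p ranked 6th by mean share in cell shCTR, and its neighbours were miR-31-5p, miR-103-3p and let-7g-5p above, and miR-130a-3p, let-7f-5p and let-7a-5p below. For each library the reads of miR-21a-5p were divided by those of the neighbour, which removes the scaling, and the 4 EV libraries of both shRNAs were compared with the 4 cell libraries by a two-sided exact permutation test. The test shuffled all libraries freely. It neither kept the shRNAs apart nor allowed for cell and EV libraries of one culture, so its p-values ignore both. With such shuffling the smallest possible p is 0.0286, and 7 comparisons were made.

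Per read of let-7g-5p, a member of the tumor-suppressive let-7 family, there were 0.839 to 1.09 reads of miR-21a-5p in cells and 0.156 to 0.218 in EVs. The log2 difference was -2.42 (SE 0.13, exact permutation p = 0.0286, adjusted p = 0.0333). Against miR-31-5p, which has been described both as oncogenic and as tumor-suppressive, the ratio went from 0.617 to 0.835 in cells to 0.0781 to 0.143 in EVs, a log2 difference of -2.82 (SE 0.23). The differences were -1.79 (SE 0.08) against miR-103-3p, -1.86 (SE 0.14) against let-7f-5p and -2.60 (SE 0.16) against let-7a-5p. Groups did not overlap in any of these 5 comparisons, and each gave the same exact permutation p of 0.0286 (adjusted p = 0.0333).

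miR-130a-3p was the one neighbour for which no difference passed. The ratio of the guide to it was 1.02 to 1.46 in cells and 0.887 to 1.29 in EVs, the groups overlapped, and the log2 difference was -0.26 (SE 0.17, exact permutation p = 0.171). Against the sum of all other mouse miRNAs, the ratio fell 5.69-fold from cells to EVs, a log2 difference of -2.51 (SE 0.10, exact permutation p = 0.0286, adjusted p = 0.0333).

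Among the 20 miRNAs with the largest mean share in cell shCTR, none had a lower EV/cell ratio than miR-21a-5p in either condition. Their log2 ratios ran from -7.41 to -4.41 in shCTR, with a median of -5.68, and from -7.66 to -4.70 in shPCBP2, with a median of -5.85. The nearest was miR-27b-3p, at -7.22 and -7.62, followed by miR-130a-3p at -7.19 and -7.32. The gaps between the guide and miR-27b-3p are smaller than the SE of the guide's own ratio, so the order of these miRNAs is not settled. miR-16-5p, the most abundant miRNA of the cells, was at the other end with -4.41 and -4.70.

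**Figure D3:**
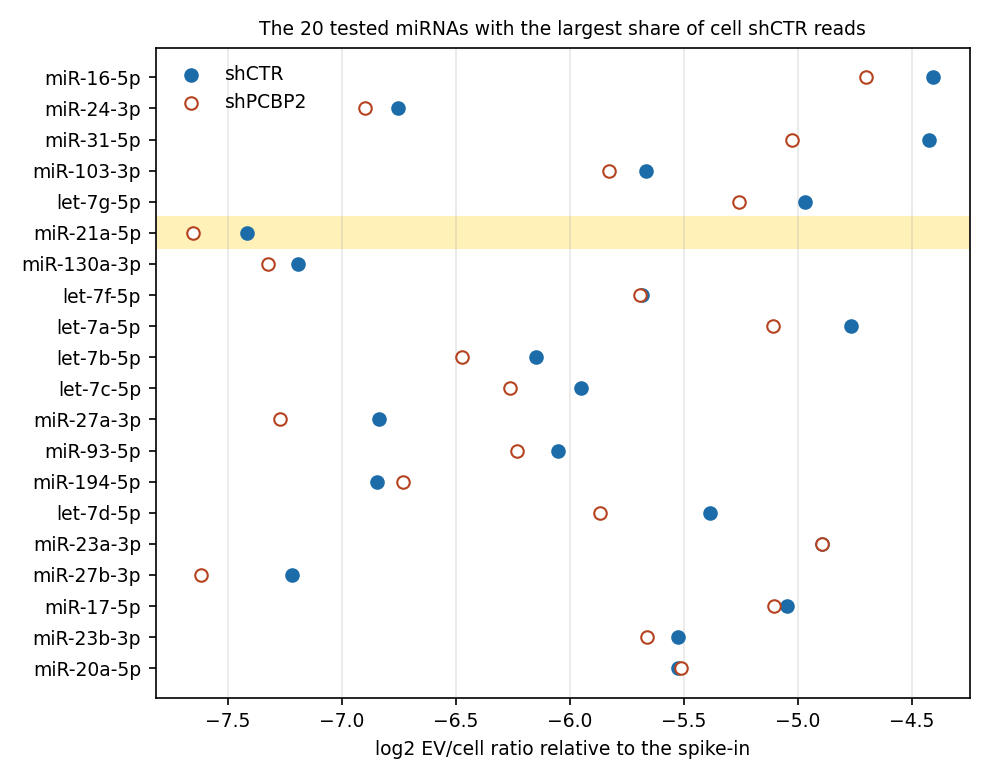
Log2 EV/cell ratio relative to the spike-in of the 20 tested miRNAs with the largest mean share in cell shCTR, ordered by that share from the top. Filled points are shCTR and open points shPCBP2, and the band marks miR-21a-5p, which has the lowest point in both conditions.

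PCBP2 silencing was compared next. In cells, the level of miR-21a-5p in shPCBP2 was 0.897 of that in shCTR, a log2 change of -0.16 (SE 0.18, 95% interval -0.59 to 0.28, edgeR adjusted p = 0.922). The groups overlapped, since cell shPCBP2 replicate 2 was between both cell shCTR replicates, whereas 68.9% of the 180 miRNAs had cell levels that did not overlap. For shares in cells, non-overlap was seen in 66.1%. edgeR called 0 of 180 miRNAs in this comparison (0.0%), with 25 at an unadjusted p under 0.05, while DESeq2 called 18 and limma voom 16, all lower. The median change of the tested miRNAs was -0.49, and 150 of the 180 had a lower change than miR-21a-5p. Relative to this median the guide lay 0.33 higher, and 0.35 higher with TMM factors, median-of-ratios factors or the total mouse miRNA count. The direction of its change in cells depended on the scaling, with log2 changes of 0.33, 0.25 and 0.13 under these alternatives, none of which passed the threshold (adjusted p between 0.261 and 1.000).

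In EVs, both shPCBP2 libraries had a lower level of miR-21a-5p than both shCTR libraries. The log2 change was -0.40 (SE 0.18, 95% interval -0.83 to 0.04, edgeR adjusted p = 0.344), and it did not pass the threshold that 13 of 180 miRNAs (7.22%) passed. Groups that did not overlap, with shPCBP2 lower, were common in EVs, at 42.2% of the tested miRNAs. The median change was -0.54, and the guide lay 0.14 above it. As a share of mouse reads, the EV groups overlapped, and 36.1% of tested miRNAs had shares that did not.

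The EV/cell ratio of miR-21a-5p, the quantity that the study followed, was not called different between shPCBP2 and shCTR. It changed by -0.24 on the log2 scale (SE 0.25, edgeR adjusted p = 0.992), or 0.846-fold with a 95% interval of 0.553 to 1.30. With 2 replicates per group, changes within this interval remain possible. The size of change that could be detected was not determined. The 4 miRNAs called in this comparison make up 2.22% of those tested, the median change was -0.08, and 72 of 180 miRNAs had a lower value than the guide. The guide therefore lay 0.16 below the median, and between 0.18 and 0.19 below it with the other scalings.

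**Figure D4:**
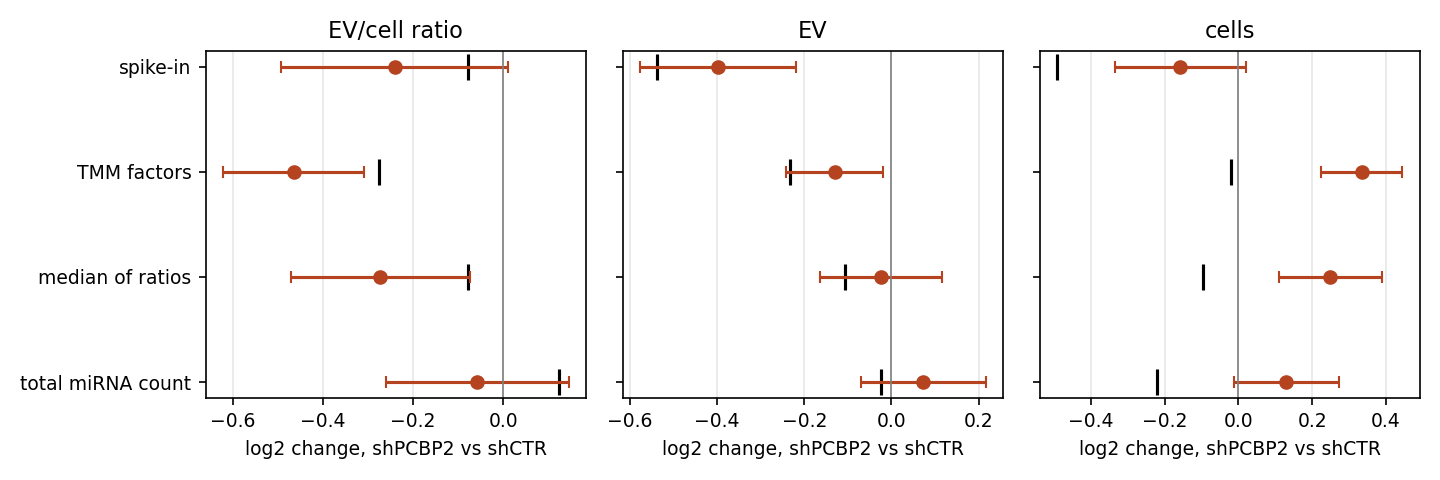
Log2 change of miR-21a-5p in shPCBP2 against shCTR, for the EV/cell ratio, in EVs and in cells, under 4 ways of scaling the libraries. Points are fitted values, bars are ± 1 SE, and black ticks are the median of the 180 tested miRNAs under the same scaling. In cells the point changes sign between the spike-in and the other scalings but stays 0.33 to 0.35 above the tick.

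The passenger, mmu-miR-21a-3p, was read at a low level in every cell library. It had 3720 and 3519 reads in cell shCTR, at levels of 208.7 and 223.7, and 2424 and 2983 reads in cell shPCBP2, at levels of 137.4 and 167.4. The shPCBP2 libraries were thus both below the shCTR libraries. Mean levels were 216.2 ± 10.5 and 152.4 ± 21.2 (SD, n = 2 each). Its share of mouse reads was 0.0292% and 0.0301% in shCTR and 0.0277% and 0.0236% in shPCBP2, between the 105th and the 109th most read miRNA.

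With reads in 1 EV library only, miR-21a-3p was not among the 180 miRNAs, and it was tested in the 4 cell libraries alone, with 574 miRNAs. Its fitted level in shPCBP2 was 0.705 of that in shCTR (95% interval 0.498 to 0.997), a log2 change of -0.50 (SE 0.21, unadjusted p = 0.0485). It did not pass after adjustment (edgeR adjusted p = 0.264). 4 of the 574 miRNAs (0.697%) were called in this fit, and in 40.4% the shPCBP2 libraries were below the shCTR libraries without overlap. The median change was -0.48, so that the passenger lay only 0.03 below it. With median-of-ratios factors its change was 0.01. In the same fit the guide had a log2 change of -0.16 (SE 0.36, edgeR adjusted p = 0.919).

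The ratio of the arms within a library needs no scaling. It was 154.3 and 130.6 reads of miR-21a-5p per read of miR-21a-3p in cell shCTR, and 175.3 and 185.2 in cell shPCBP2, so that both shPCBP2 libraries were higher. The means were 142.5 ± 16.8 and 180.3 ± 7.01 (SD, n = 2 each). Equivalently, the passenger made up 0.644% and 0.760% of the reads of both arms in shCTR and 0.567% and 0.537% in shPCBP2. The fitted log2 change of the ratio was 0.34 (SE 0.23), which limma did not call (adjusted p = 0.481). limma called 0 of the 86 pairs with at least 10 reads of each arm in every cell library (0.0%), and 11 had an unadjusted p under 0.05. With an intensity trend limma called 3, with an adjusted p of 0.191 for miR-21a. Non-overlap with shPCBP2 higher was seen in 30.2% of the pairs. The absolute change was larger than that of miR-21a in 52 of 86 pairs, and its median was 0.40. A permutation test of 2 against 2 libraries cannot go below 0.333.

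Strand choice of miR-21a was uneven, but not extreme in these cells. The 5p arm was the more read arm in 52 of the 86 pairs, the median pair differed 20.2-fold between its arms in cell shCTR, and 22 pairs were more uneven than miR-21a.

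**Figure D5:**
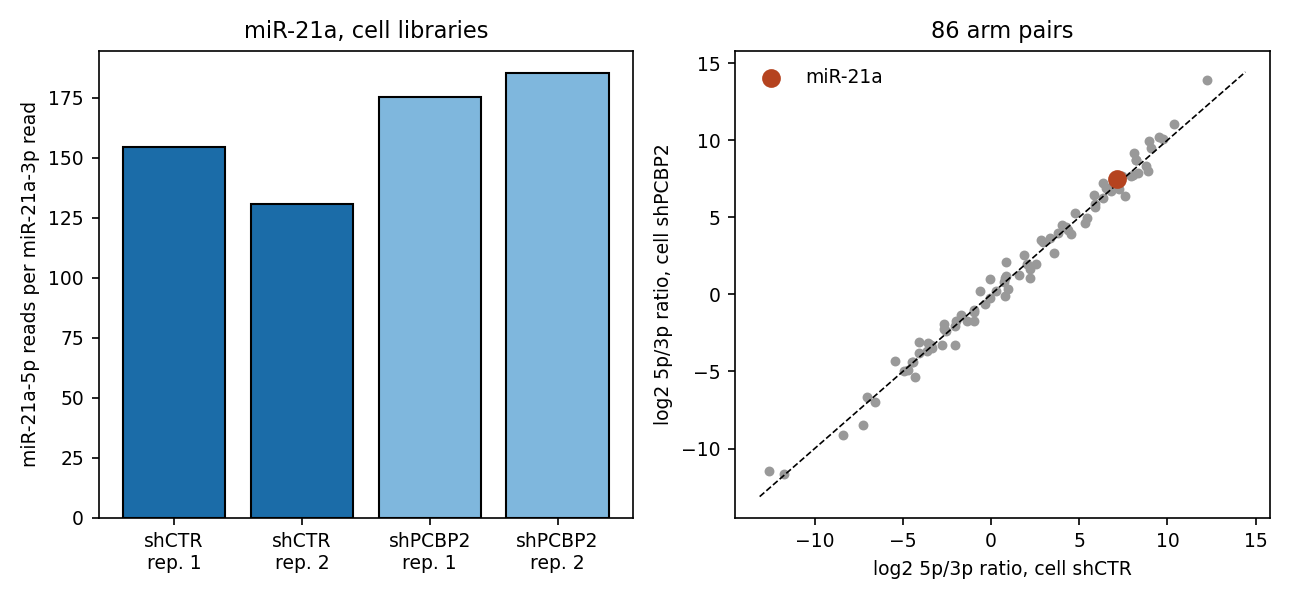
Left, reads of miR-21a-5p per read of miR-21a-3p in the 4 cell libraries, on an axis that starts at 0. Right, mean log2 5p/3p ratio of 86 arm pairs in cell shPCBP2 against cell shCTR, with miR-21a as the large point and a dashed line of equal values.

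In EVs, miR-21a-3p had 143 reads in EV shCTR replicate 1 and 0 reads in the other EV libraries. The 143 reads correspond to a level of 5.15 and to 2.81% of the reads of both arms (Wilson 95% interval 2.39% to 3.30%), above the 0.537% to 0.760% of cell libraries. In the libraries with 0 reads, 3 counts would amount to 0.0634%, 0.0533% and 0.08% of both arms. Had the arms been present in EVs at the pooled cell ratio of the same shRNA, the guide reads would imply 34.7, 33.1, 31.1 and 20.7 passenger reads, or 120 in all against the 143 counted in 1 library. All EV reads of the passenger were thus in a single library, which exceeded its own implied count.

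Low counts above 0 were rare in EV libraries. Of the 761 counts above 0 in the EV libraries, only 28 were between 1 and 40. The neighbours of the passenger by share in cell shCTR were also read in some EV libraries and not in others. miR-17-3p had 42 and 169 EV reads in shCTR and 0 in both shPCBP2 libraries, and miR-210-3p, a hypoxia-induced miRNA, had 150, 0, 0 and 175. miR-501-3p had 383, 0, 165 and 58 reads, miR-22-5p 86, 54, 131 and 0, and miR-101b-3p 119 in EV shPCBP2 replicate 2 alone. Only miR-1839-5p was read in each EV library, with 326 to 507 reads. Over the 26 other miRNAs within 1.5-fold of the passenger's mean cell count of 3162, a range chosen after the values were seen, 2 had reads in no EV library, 3 in 1, 7 in 2, 5 in 3 and 9 in all 4, and their smallest count above 0 was 42. Absence of the passenger from 3 EV libraries was therefore within the range of miRNAs of its cell level.

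For most hairpins with at least 10 reads of each arm in every cell library, the less read arm had no EV reads. The pairs and their less read arm were set by cell reads alone, and the EV libraries held far fewer mouse reads. Absence from EVs beyond this low depth was not tested. Of the 86 pairs, the main arm was read in every EV library for 51 and in none for 10. The less read arm was read in every EV library for 8 pairs, in exactly 1, as for miR-21a, for 15, and in none for 48.

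The miRNAs whose counts followed the guide most closely over the 8 libraries were found by the SD of the log2 ratio to miR-21a-5p, among the 112 others with at least 10 reads in every library. The SD was 0.24 for miR-196b-5p, which is encoded in a Hox cluster, 0.25 for miR-27b-3p, 0.27 for miR-130a-3p, 0.30 for miR-324-5p and 0.40 for miR-674-5p, against a median of 1.49. The 8 libraries fall into cells and EVs with very different depth, and all 5 miRNAs were far lower in EVs. The choice used the same 8 libraries, so EV/cell ratios close to that of the guide follow from it. Log2 EV/cell ratios of these 5 miRNAs were between -7.27 and -7.04 in shCTR and between -7.64 and -6.95 in shPCBP2. miR-27b-3p had 177017 to 280377 reads in cells and 1619 to 3447 in EVs, and miR-196b-5p 66819 to 91758 and 647 to 1063.

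As miR-21 is a prototype of oncogenic miRNAs, it was placed within a list of 27 miRNAs often described as such, which includes miR-21a-5p itself. Of these, 26 were in the table and 23 were tested, and counts and medians of the list below include the guide. In shCTR 19 of the 23 were called lower in EVs and in shPCBP2 20, with none higher, beside 59.4% and 60.0% called lower among all tested miRNAs. The median log2 ratios were -5.55 and -5.56, against -4.93 and -4.90 for all tested miRNAs. None of the other listed miRNAs had a lower ratio than miR-21a-5p in either condition. The next in shCTR was miR-96-5p, which targets FOXO mRNAs, at -7.14. miR-10b-5p, linked to metastasis, was the least affected with -0.92, and it was not called (edgeR adjusted p = 0.195).

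For the change of the EV/cell ratio edgeR called 0 of the 23, with 1 at an unadjusted p under 0.05, while DESeq2 called 1 and limma voom 0. Over all 180 tested miRNAs the counts were 4, 17, 14 and 0 in the same order. The list median was 0.02, against -0.08 for all tested miRNAs. In EVs, 1 of the 23 was called between shPCBP2 and shCTR, beside 7.22% of all tested miRNAs. This was miR-31-5p, which was lower in shPCBP2 by a log2 change of -1.07 (SE 0.19, edgeR adjusted p = 0.0320). In cells edgeR called 0 of the 23, with 6 at an unadjusted p under 0.05, and DESeq2 called 1 and limma voom 2. Over all 180 tested miRNAs the counts were 0, 25, 18 and 16 in the same order. The list median in cells was -0.48, near the -0.49 of all tested miRNAs. Of the 23, 20 had a lower change than the guide, as did 150 of all 180.

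The EV libraries also held miRNAs of other cell types. Among all 180 tested miRNAs, 12 were called higher in EVs in shCTR and 14 in shPCBP2. Of a list of 9 blood miRNAs, 5 were tested, and 4 of them, miR-486a-5p, miR-486b-5p, miR-223-3p and miR-150-5p, were called higher in EVs in both conditions, while miR-16-5p was lower. miR-451a, the erythroid miRNA, had 0 reads in every cell library and 3595 to 4430 in EV libraries, and the myeloid and lymphoid miR-142a-3p 0 and 1117 to 2157. The whole list made up 8.19% to 9.88% of mouse reads in cells, mostly miR-16-5p, and 24.0% to 27.7% in EVs. Of 5 mesenchymal miRNAs 4 were tested and called higher in EVs, with a summed share of 0.00134% to 0.00305% in cells and 0.394% to 0.709% in EVs. For 2 endothelial miRNAs the shares were 0.0174% to 0.0228% and 0.489% to 0.880%, and edgeR called neither in either condition. Of the 3 hepatocyte miRNAs, 2 were called lower in EVs, and miR-122-5p had 795 to 2327 EV reads. Reads of bovine serum cannot be told apart from mouse reads where the mature sequence is conserved, and the part of these miRNAs in the EV level of miR-21a-5p was not tested.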

How the data were processed

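The authors trimmed the reads, kept forward reads, counted them on miRBase hairpins and the spike-in with mirPRo and NovoAlign, and deposited raw counts per mature miRNA. Counts above 999999 are printed to 6 significant digits. Samples were grouped by their titles, whose replicate numbers for shPCBP2 differ from those of the descriptions. The members and lists were chosen with earlier results of these data known.

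The edgeR 4.0.16 quasi-likelihood test (R 4.3.3) was run on the deposited counts scaled by the spike-in count, with a prior count of 0.125 and terms for compartment, shRNA and interaction, for miRNAs detected with 1 read or more in 2 libraries of each compartment. Cell libraries alone were fitted for miR-21a-3p. Standard errors were derived from the F statistic. Arm ratios were tested with limma 3.58.1 after adding 0.5 to each count. p-values were Benjamini-Hochberg adjusted, and the threshold was 0.05. Shares carry Wilson 95% intervals. Exact permutation tests and plots used Python 3.11.15 and scipy 1.17.1. The fits were tested on simulated data of lower dispersion than the common dispersion of 0.693 in these 8 libraries. That check does not measure the power to detect the changes between shPCBP2 and shCTR.

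The named miRNAs were both arms, the miR-21 family, the 5 most alike, the 3 next above and below each arm by share in cell shCTR, members of the lists (oncogenic, hepatocyte, blood, endothelial, mesenchymal) that passed the test, and others named after their values were seen, namely miR-206-3p, miR-872-5p, miR-34a-5p, miR-106a-5p, miR-96-5p, miR-10b-5p, miR-16-5p, miR-122-5p, miR-451a and miR-142a-3p. Alternatives were TMM, median-of-ratios or total-count scaling, no filter or 10 counts in every library, DESeq2 1.42.0, limma voom, robust estimation, a replicate block, only the libraries compared, other arm settings, and each library left out. miR-421-3p was named as well, for the motif that the study gives it. Mature sequences came from RefSeq and gene positions from GENCODE, both on GRCm38. Hairpin and UTR sequence beyond the mature arms was not used here.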

Additional observations from a re-analysis of the deposited data

How the results depend on the processing

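For miR-21a-5p, 17 of 17 alternatives kept the direction of the change of the EV/cell ratio and left it not called. All 18 alternatives kept EVs below cells with an adjusted p under 0.05 in shCTR and in shPCBP2, although the log2 ratios with median-of-ratios factors were -2.63 and -2.90, and with the total mouse miRNA count -2.42 and -2.48. In EVs the change between shPCBP2 and shCTR turned to 0.073 with the total mouse miRNA count. In cells it turned to 0.33 with TMM factors, 0.25 with median-of-ratios factors, 0.13 with the total mouse miRNA count and 0.014 without cell shPCBP2 replicate 1. The change of miR-21a-3p in cells turned to 0.0072 with median-of-ratios factors. None of these was called.

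Leaving out each library in turn gave log2 values of -0.41 to -0.05 for the ratio change, -7.48 to -7.34 for EVs against cells in shCTR, -7.83 to -7.46 in shPCBP2, -0.55 to -0.26 in EVs and -0.35 to 0.01 in cells. For miR-21a-3p they were -0.65 to -0.37, with the lowest adjusted p, 0.0583, without cell shPCBP2 replicate 2, where 85 miRNAs were called in place of 4. For the arm ratio they were 0.22 to 0.46.

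Counts of calls moved more than the members. For the ratio change, 4 calls became 13 with TMM factors, 2 with median-of-ratios factors, 6 with the total count, 14 with DESeq2, and 0 with limma voom or the filter of 10 counts. Left-out libraries gave 0 calls without either cell shCTR library, without cell shPCBP2 replicate 2 or without EV shCTR replicate 2, and up to 12 without EV shPCBP2 replicate 1. For EVs against cells in shCTR, 119 calls became 76 with median-of-ratios factors and 75 with the total count, and 294 of 800 miRNAs with no filter, as in shPCBP2, where they had been 122. In EVs, 13 calls became 27 with DESeq2, 4 with limma voom, 7 with either filter and 1 in the 4 libraries alone. In cells, 0 calls became 39 in the 4 libraries alone, 8 with the filter of 10 counts, and 5, 1 and 3 with the other scalings. For miR-21a-3p, 4 calls became 29, 24 and 34 with the other scalings, 32 with no filter, 30 with the filter of 10 counts, 43 with DESeq2 and 16 with limma voom.

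Samples share only a number. Same-numbered libraries deviated from their group means with correlations of -0.51 between the cell groups and -0.09 to 0.04 otherwise over 180 miRNAs. With the replicate number as a block the log2 values were -0.24 for the ratio change, -0.40 in EVs, -0.16 in cells, -0.51 for miR-21a-3p (edgeR adjusted p = 0.380) and 0.34 for the arm ratio. EVs against cells stayed at -7.41 and -7.66, and no call of either arm changed. The block gave 1 call in place of 4 for the ratio change, 2 in place of 13 in EVs and 25 in place of 4 in cell libraries alone. A pairing with crossed numbers for cell shPCBP2, added after seeing the data, gave 17. With 2 replicates per group, and 0 EV reads in 3 libraries for the passenger, changes may have been missed. The size that could be detected was not determined.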
